A study of Mus musculus with 8 samples.

Results

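The protocadherins, the largest group of the cadherin superfamily, were examined across 8 RNA-seq libraries from the medial prefrontal cortex (mPFC) of mice trained in conditioned place preference (CPP) with METH. Members were the protein-coding rows of the deposited gene count table whose symbol begins with Pcdh and that had 10 or more reads in each of the 8 libraries. The family was chosen with earlier results of these data known. The rule itself used symbol, biotype and the read minimum, and not the difference between groups. It left 64 genes of 54532 in the table: 12 alpha, 21 beta and 20 gamma genes, 53 clustered genes in all, and 11 non-clustered genes. The 2 groups were retrieval of the METH-associated CPP memory (4 libraries) and non-retrieval (4 libraries). All came from adult male C57BL/6 mice, with mPFC taken 1 h after the CPP test and 2 to 3 mice pooled per library. How the non-retrieval mice differed in handling is not given in the sources used here, and all 8 libraries carry the same tissue label.

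Protocadherins are single-pass membrane proteins with extracellular cadherin repeats that bind the same protein on a neighbouring cell. The alpha, beta and gamma genes lie side by side in one array, and each neuron switches on its own small set of them by promoter choice, which gives it a surface identity used in self-avoidance and synapse formation. In the alpha and gamma clusters each variable exon has its own promoter and is spliced to constant exons shared by the whole cluster, whereas beta genes are single exons with no shared part. The C-type genes at the ends of the alpha and gamma clusters are expressed by most neurons instead of being chosen at random. Non-clustered protocadherins are scattered over the genome, and several of them bind actin regulators or act in synapse remodelling.

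Of 70 rows with a Pcdh symbol, 69 were protein-coding and 64 met the read minimum. The polymorphic pseudogene Pcdhgb8 had 47 to 92 reads per library and was left out by its biotype. Pcdh12 had 6 to 24 reads, Pcdha4 2 to 12, Pcdhga10 2 to 13, a second row named Pcdha11 (ENSMUSG00000102206) 1 to 6, and Pcdhb1 0 to 2. Just inside the minimum lay Pcdha8, whose lowest library held 12 reads, Pcdha1 with 27 and Pcdhb4 with 43. All 64 members passed the filter on low counts and were among the 16745 genes tested.

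The libraries held 25013503 to 29547978 reads assigned to genes. Levels are given as CPM, the count as a share of the library's assigned reads, scaled by trimmed mean of M-values (TMM) factors. Differences are log2 fold changes of retrieval over non-retrieval with their standard error (SE), and a gene is called where edgeR's quasi-likelihood test gave a Benjamini-Hochberg adjusted p under 0.05 over all tested genes. In all, 615 genes were called higher and 151 lower. Excitatory cortical neurons were represented by Slc17a7, the vesicular glutamate transporter. It had 1995 ± 121 CPM in retrieval and 2081 ± 136 CPM in non-retrieval libraries (SD, n = 4 each). Slc17a7 was 1 of 10 cortical neuron markers, of which edgeR called 0 and limma-voom 1. Among these 10, 6 had a positive log2 fold change and 4 a negative one, with a median of 0.02. In edgeR 3 had an unadjusted p under 0.05, 2 higher and 1 lower in retrieval. Beside 3.67% of all tested genes called higher, 8 of 18 myelin markers (44.4%) were called, all higher in retrieval libraries. Their mean log2 CPM was 6.15, 6.57, 6.10 and 6.46 in retrieval replicates 1 to 4, against 5.87, 6.13, 5.95 and 5.87 in non-retrieval replicates 1 to 4, so retrieval replicates 2 and 4 stood highest. The mean log2 CPM of 13 markers of striatal projection neurons also stood apart in retrieval replicate 2. It was 4.85 there, against 3.73 to 3.97 in the other 7 libraries. Not each marker did so: Tac1 was at 16.4 CPM in that library and at 13.9 to 17.6 CPM in the others.

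Only 2 of the 64 members (3.13%) were called between retrieval and non-retrieval, against a background of 4.57% of all tested genes. Both, Pcdh1 and Pcdh8, were non-clustered and higher in retrieval libraries, where 3.67% of all genes were called, and 0 members were called lower, beside 0.902% of all genes. None of the 53 clustered genes was called by edgeR, DESeq2 or limma-voom, and 4 of them had an unadjusted p under 0.05. Over all members, 9 had an unadjusted p under 0.05 (14.1%), against 18.5% of all tested genes. The log2 fold change was positive in 30 members (46.9%), beside 47.8% of all tested genes, and negative in 34, with a median of -0.02, beside -0.0095 over all tested genes. The libraries of the groups did not overlap for 2 members that were higher (Pcdh1 and Pcdh8) and 1 that was lower (Pcdhac1), where the background was 6.59% of genes higher and 4.53% lower. In this bulk tissue, more cells of a type and more RNA per cell cannot be told apart.

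**Figure D1:**
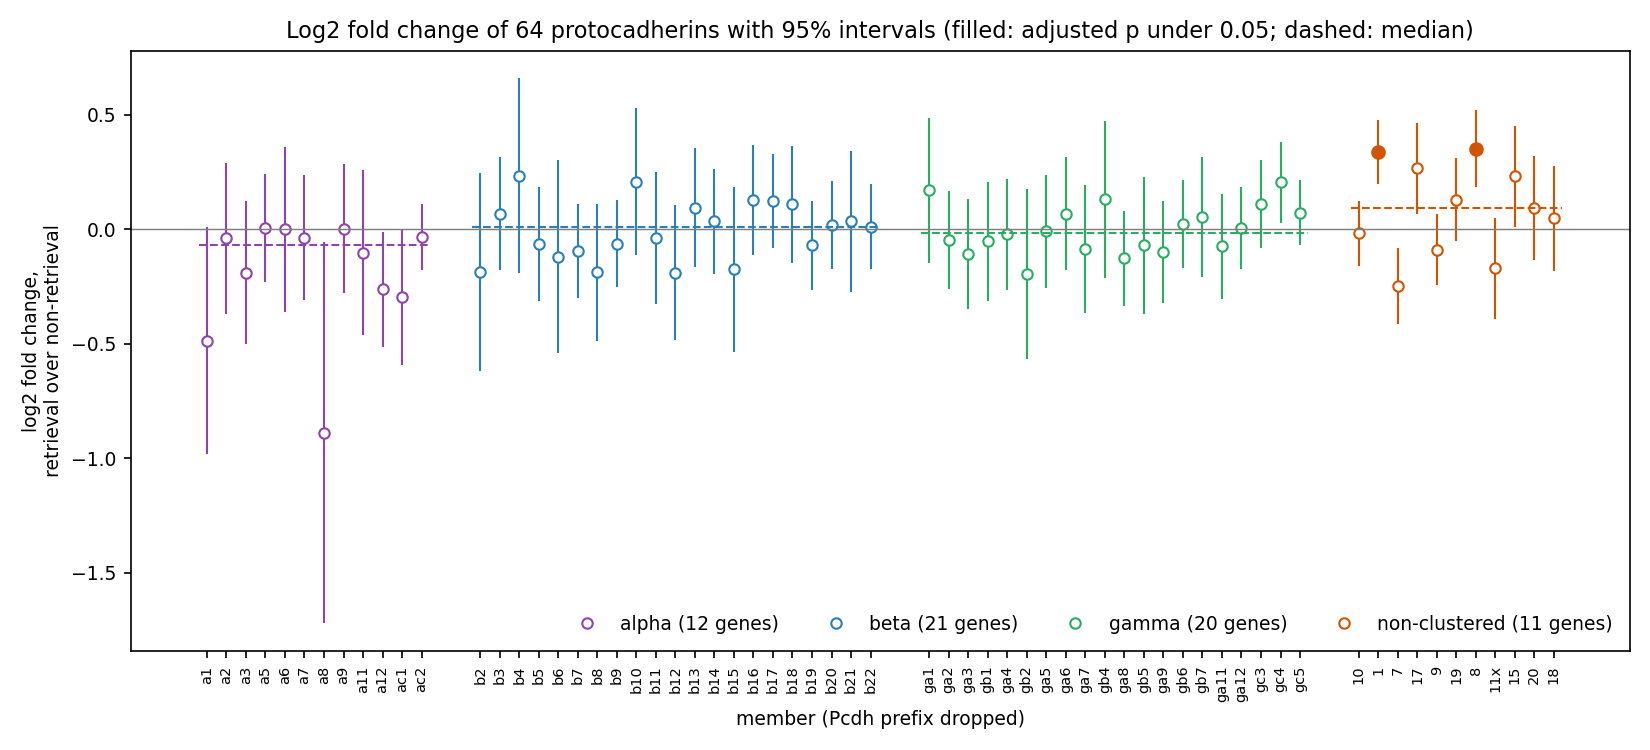
Log2 fold change of each of the 64 protocadherins, retrieval over non-retrieval, by family, with 95% intervals from the edgeR fit and a dashed line at each family's median; filled points mark the members called. Pcdh1 and Pcdh8 are the filled points, at 0.34 and 0.35, and the clustered genes scatter around 0, with Pcdha8 lowest at -0.89.

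The 11 non-clustered genes carried 69.1% of the members' reads. Per kilobase of exon not shared with another gene, Pcdh1 was highest at 40.4 CPM per kb, followed by Pcdh10 at 24.9, Pcdh9 at 20.6, Pcdh7 at 19.0, Pcdh8 at 12.6 and Pcdh17 at 11.2. Pcdh19 stood at 5.54, Pcdh20 at 2.56, Pcdh18 at 1.47, Pcdh11x at 1.39 and Pcdh15 at 0.776 CPM per kb. Neighbouring pairs in that order overlapped within their spread for Pcdh9 and Pcdh7, Pcdh8 and Pcdh17, and Pcdh18 and Pcdh11x, in the retrieval libraries also for Pcdh7 and Pcdh8, and in the non-retrieval libraries also for Pcdh10 and Pcdh9. In non-retrieval libraries, for example, Pcdh9 was at 21.2 ± 1.92 and Pcdh7 at 20.6 ± 1.60 CPM per kb (SD, n = 4).

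Pcdh1 (ENSMUSG00000051375, GRCm38 chromosome 18, 38185914 to 38212053, minus strand) is known from epithelial and neuronal cell adhesion. It had 359, 431, 392 and 405 CPM in the retrieval libraries, against 298, 333, 324 and 303 CPM in the non-retrieval libraries. Every retrieval library lay above every non-retrieval library, and replicate 2 was the highest in both groups. The means were 397 ± 29.9 CPM in retrieval and 314 ± 16.5 CPM in non-retrieval libraries (SD, n = 4 each), and the gene rose by a log2 fold change of 0.34 (SE 0.07, 95% interval 0.20 to 0.48, edgeR adjusted p = 0.00769). Its call held with each library left out in turn, with edgeR adjusted p between 0.000572 and 0.0361, and with retrieval replicate 2 left out the log2 fold change was 0.29 (edgeR adjusted p = 0.0215).

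Pcdh8 (ENSMUSG00000036422, chromosome 14, 79766775 to 79771312, minus strand), also known as arcadlin, is an activity-induced protocadherin of synapses that drives internalisation of N-cadherin in rat neurons. It had 52.9, 58.9, 53.4 and 66.1 CPM in the retrieval libraries, against 45.6, 46.5, 41.1 and 48.1 CPM in the non-retrieval libraries. Again no library of one group fell within the range of the other, and retrieval replicate 4 was the highest. Means were 57.8 ± 6.16 CPM in retrieval and 45.3 ± 3.02 CPM in non-retrieval libraries (SD, n = 4 each). Pcdh8 rose by a log2 fold change of 0.35 (SE 0.08, 95% interval 0.18 to 0.52, edgeR adjusted p = 0.0182). The call was lost when retrieval replicate 4 was left out (0.28, edgeR adjusted p = 0.0738) and when non-retrieval replicate 3 was left out (0.31, edgeR adjusted p = 0.0815).

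Pcdh1 and Pcdh8 were higher in the same group as the myelin markers, which had positive log2 fold changes for 18 of 18 genes and a median of 0.39. Summed levels of these markers were 4369 to 6301 CPM in retrieval and 3604 to 4264 CPM in non-retrieval libraries. Within both groups, Pcdh1 and the myelin marker mean were highest in replicate 2, whereas Pcdh8 was highest in replicate 4. With the myelin marker mean as a covariate, the log2 fold change was 0.18 for Pcdh1 (edgeR adjusted p = 0.382) and 0.20 for Pcdh8 (edgeR adjusted p = 0.465). Over all tested genes, that covariate cut the calls from 766 to 150. The covariate was itself mostly higher in retrieval (6.10 to 6.57) than in non-retrieval libraries (5.87 to 6.13), so it cannot be fully separated from the group. With retrieval replicates 2 and 4 left out together, a setting chosen after seeing the data, the log2 fold change was 0.26 for Pcdh1 (edgeR adjusted p = 0.0961) and 0.23 for Pcdh8 (edgeR adjusted p = 0.196). The part of the myelin markers in either call was not tested. Both genes were also the most GC-rich of the non-clustered members, with 60.7% and 59.3% GC in the longest transcript, against a median of 49.7% over all tested genes. After an adjustment of each library for exon length and base composition (the length and GC offset) the log2 fold change of Pcdh1 was 0.19 (edgeR adjusted p = 0.00608) and that of Pcdh8 0.29 (edgeR adjusted p = 0.0144), and of all genes called under that offset 55.0% were higher, beside 80.3% without it.

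**Figure D2:**
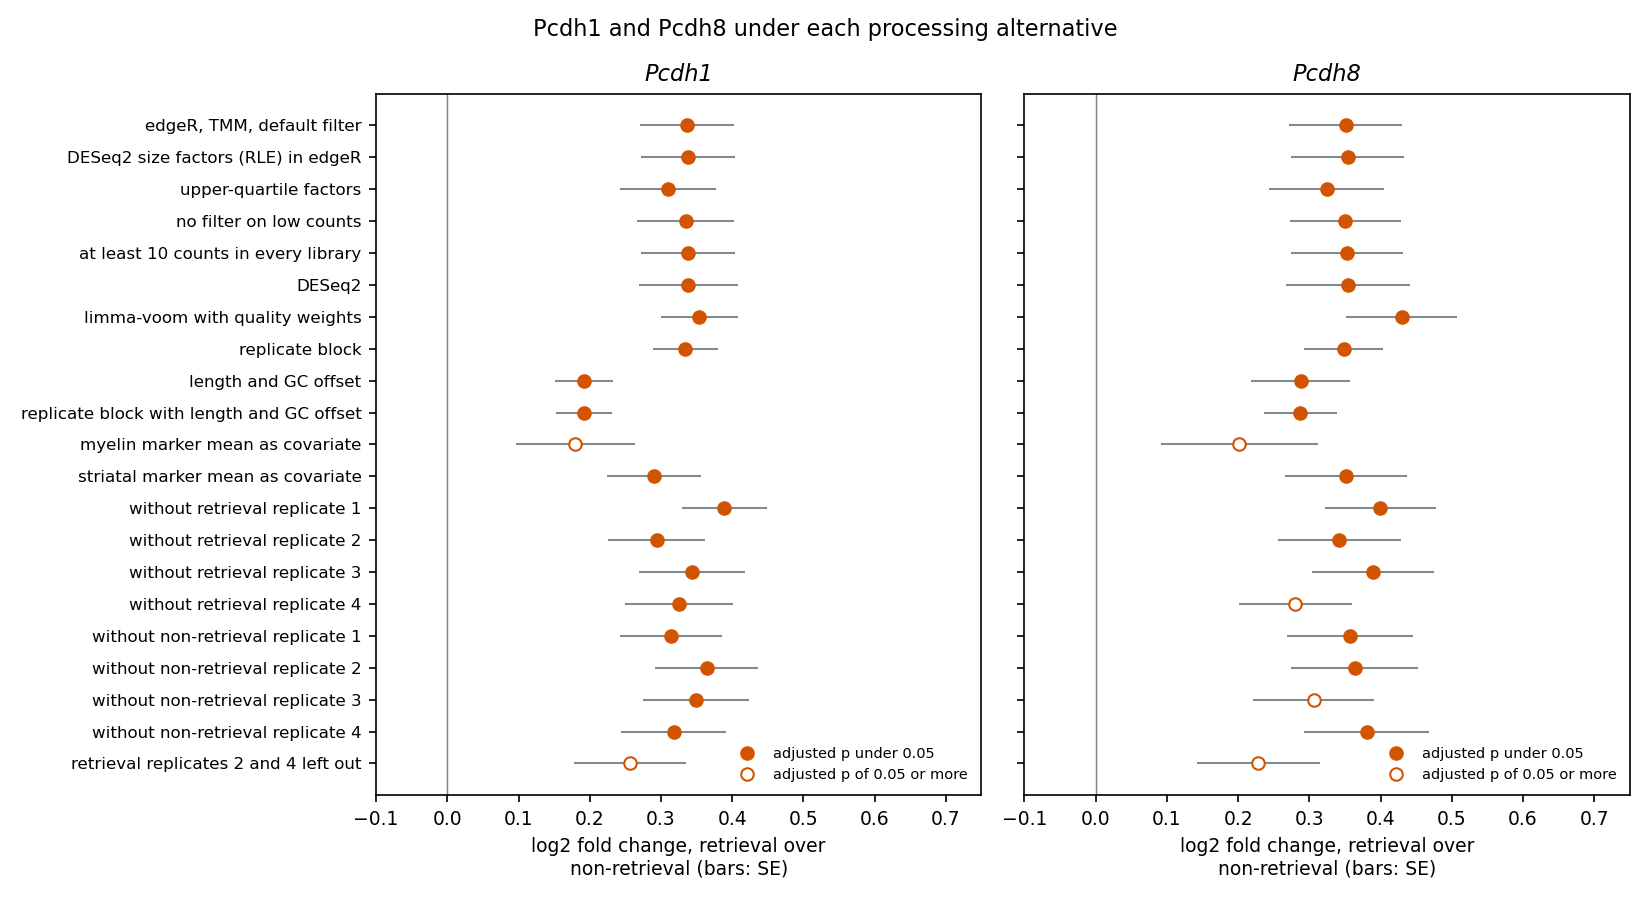
Log2 fold change of Pcdh1 and Pcdh8, retrieval over non-retrieval, with bars of 1 SE, under each way of processing and with each library left out; filled points were called. Every value is above 0, and neither gene is called with the myelin covariate (0.18 and 0.20) or with retrieval replicates 2 and 4 left out (0.26 and 0.23).

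The promoters of 9 of the 11 non-clustered members were found in a RefSeq table of the GRCm38.p6 build, all but Pcdh1 and Pcdh11x. The 250 bases before the gene start are shown for Pcdh8, the called gene, and for Pcdh10 and Pcdh17, which were not called. Capitals mark 3 motifs. The CCAAT box appears on the strand shown as its reverse complement, ATTGG. The TATA box is searched as TATAAA. The core of the cAMP response element is searched as TGACG. Pcdh8 lies at chr14:79771313-79771562 on the minus strand, Pcdh10 at chr3:45378148-45378397 on the plus strand and Pcdh17 at chr14:84443313-84443562 on the plus strand.
Pcdh8: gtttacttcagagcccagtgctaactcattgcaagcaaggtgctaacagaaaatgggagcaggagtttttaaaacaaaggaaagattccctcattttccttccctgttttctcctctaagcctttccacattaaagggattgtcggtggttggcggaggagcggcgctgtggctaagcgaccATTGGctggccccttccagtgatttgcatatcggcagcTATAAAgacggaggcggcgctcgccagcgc
Pcdh10: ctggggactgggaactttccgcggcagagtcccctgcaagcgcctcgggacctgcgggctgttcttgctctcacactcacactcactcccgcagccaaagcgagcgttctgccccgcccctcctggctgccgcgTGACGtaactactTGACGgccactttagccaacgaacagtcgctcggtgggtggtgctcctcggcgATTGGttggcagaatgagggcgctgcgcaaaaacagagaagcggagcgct
Pcdh17: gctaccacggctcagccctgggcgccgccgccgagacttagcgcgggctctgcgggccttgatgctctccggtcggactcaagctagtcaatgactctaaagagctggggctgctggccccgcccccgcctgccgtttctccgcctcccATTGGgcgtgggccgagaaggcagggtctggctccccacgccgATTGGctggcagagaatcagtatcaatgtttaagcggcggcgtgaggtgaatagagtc

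The Pcdh8 window held CCAAT starting 68 bases and TATAAA starting 30 bases before the gene start. Searched on both strands, CCAAT was in 8 of the 9 windows (all but Pcdh7) and in 33.8% of 32851 RefSeq promoter windows of the same length. The longer string CCAGCCAAT, chosen after the sequences were read and overlapping CCAAT, was in those of Pcdh8, Pcdh17 and Pcdh18 and in 0.959% of all windows. TATAAA was in Pcdh8 and Pcdh15 and in 12.4% of all windows. The full cAMP response element TGACGTCA was in none of the 9 and in 1.55% of all windows, and its core TGACG was in Pcdh10 and Pcdh9 and in 17.8%. The EGR site GCGGGGGCG was in Pcdh17, where it carries no capitals, and in 2.57% of all windows. These matches are of letters only.

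Among the other non-clustered genes, Pcdh7 and Pcdh17 came nearest to the threshold, in opposite directions. Pcdh7 (ENSMUSG00000029108, chromosome 5, 57717967 to 58133230, plus strand) encodes a widely expressed neuronal protocadherin. It had 166, 130, 151 and 135 CPM in the retrieval libraries, against 192, 162, 167 and 170 CPM in the non-retrieval libraries. Retrieval replicate 1 alone lay within the non-retrieval range. The log2 fold change was -0.25 (SE 0.08, 95% interval -0.42 to -0.08, edgeR adjusted p = 0.0954). Without retrieval replicate 1 it was -0.31 and called (edgeR adjusted p = 0.0115), as it was under limma-voom (-0.29, adjusted p = 0.00948) and with the length and GC offset (-0.32, edgeR adjusted p = 0.00194). With the myelin marker mean as a covariate it was -0.02 (edgeR adjusted p = 0.951), and with retrieval replicates 2 and 4 left out it was -0.12 (edgeR adjusted p = 0.531). Pcdh7 overlaps 2235 exon bases of the antisense gene 4932441J04Rik, itself at 108 to 159 reads per library, and the strand setting of the counting is not given in the sources used here.

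Pcdh17 (ENSMUSG00000035566, chromosome 14, 84443563 to 84539002, plus strand) organises synapses in corticobasal ganglia circuits and recruits the WAVE actin-regulating complex in mouse axons. It had 174, 163, 148 and 153 CPM in the retrieval libraries, against 140, 160, 116 and 115 CPM in the non-retrieval libraries. Non-retrieval replicate 2 lay within the retrieval range and the other non-retrieval libraries lay below it. The log2 fold change was 0.27 (SE 0.09, 95% interval 0.07 to 0.46, edgeR adjusted p = 0.129), and without non-retrieval replicate 2 it was 0.37 and called (edgeR adjusted p = 0.0249). It was 0.16 with the myelin marker mean as a covariate (edgeR adjusted p = 0.635), 0.18 with the length and GC offset (not called) and 0.20 without non-retrieval replicate 4 (edgeR adjusted p = 0.342).

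The remaining 7 non-clustered genes had values that overlapped between groups. Pcdh10, which promotes synapse elimination in mouse neurons, had 388, 384, 398 and 388 CPM in the retrieval libraries, against 393, 449, 364 and 371 CPM in the non-retrieval libraries. Its log2 fold change was -0.02 with a 95% interval of -0.16 to 0.12 (edgeR adjusted p = 0.919). Pcdh9 had 151, 129, 129 and 132 CPM in retrieval, against 158, 151, 134 and 132 CPM in non-retrieval libraries (-0.09, SE 0.07, edgeR adjusted p = 0.561). Both are highly expressed cortical adhesion genes, and neither moved beyond the spread between libraries.

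Pcdh19, the X-linked gene mutated in a form of epilepsy mainly of girls, had 65.5, 60.2, 52.0 and 63.2 CPM in retrieval, against 57.5, 62.8, 49.7 and 50.4 CPM in non-retrieval libraries (0.13, SE 0.09, edgeR adjusted p = 0.453). Pcdh11x, also on the X chromosome, had 21.4, 15.4, 17.1 and 19.1 CPM in retrieval, against 23.7, 19.5, 20.2 and 18.8 CPM in non-retrieval libraries (-0.17, SE 0.10, edgeR adjusted p = 0.414), and its log2 fold change was -0.0042 with the myelin covariate. The X-linked pair thus had opposite signs and overlapping groups. Pcdh15, a component of hair-cell tip links that is also expressed in oligodendrocyte precursors, had 21.6, 19.4, 19.7 and 18.9 CPM in retrieval, against 18.4, 19.3, 17.0 and 13.2 CPM in non-retrieval libraries (0.23, SE 0.10, edgeR adjusted p = 0.246). The Pcdh15 log2 fold change was 0.08 with the length and GC offset (edgeR adjusted p = 0.583) and 0.13 without non-retrieval replicate 4, the lowest library (edgeR adjusted p = 0.553). Of 10 markers of oligodendrocyte precursors, 10 had a positive log2 fold change (9 with the length and GC offset). Among them 2 (20%), Gpr17 and Bcas1, were called higher, beside 3.67% of all tested genes. The remaining markers were not called, among them Pdgfra (0.12, edgeR adjusted p = 0.374) and Cspg4 (0.14, edgeR adjusted p = 0.497). Summed levels of the 10 markers were 398 to 529 CPM in retrieval and 384 to 444 CPM in non-retrieval libraries. The part of these markers in the Pcdh15 value was not tested.

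Pcdh20 and Pcdh18, delta-type protocadherins of low level here, showed the smallest counts of the non-clustered genes. Pcdh20 had 13.9, 11.96, 16.0 and 16.1 CPM in retrieval, against 15.1, 14.1, 12.01 and 13.1 CPM in non-retrieval libraries (0.09, SE 0.11, edgeR adjusted p = 0.693). Pcdh18 had 8.52, 7.06, 8.23 and 8.33 CPM in retrieval, against 8.94, 7.68, 7.16 and 7.30 CPM in non-retrieval libraries (0.05, SE 0.11, edgeR adjusted p = 0.856). Over the 11 genes, 7 log2 fold changes were positive and 4 negative, with a median of 0.09. Their summed level was 1405 ± 15.2 CPM in retrieval and 1317 ± 87.5 CPM in non-retrieval libraries (SD, n = 4 each), and the ranges overlapped. The 95% interval lay within 0.5 of 0 for 10 of the 11 genes, all but Pcdh8.

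**Figure D3:**
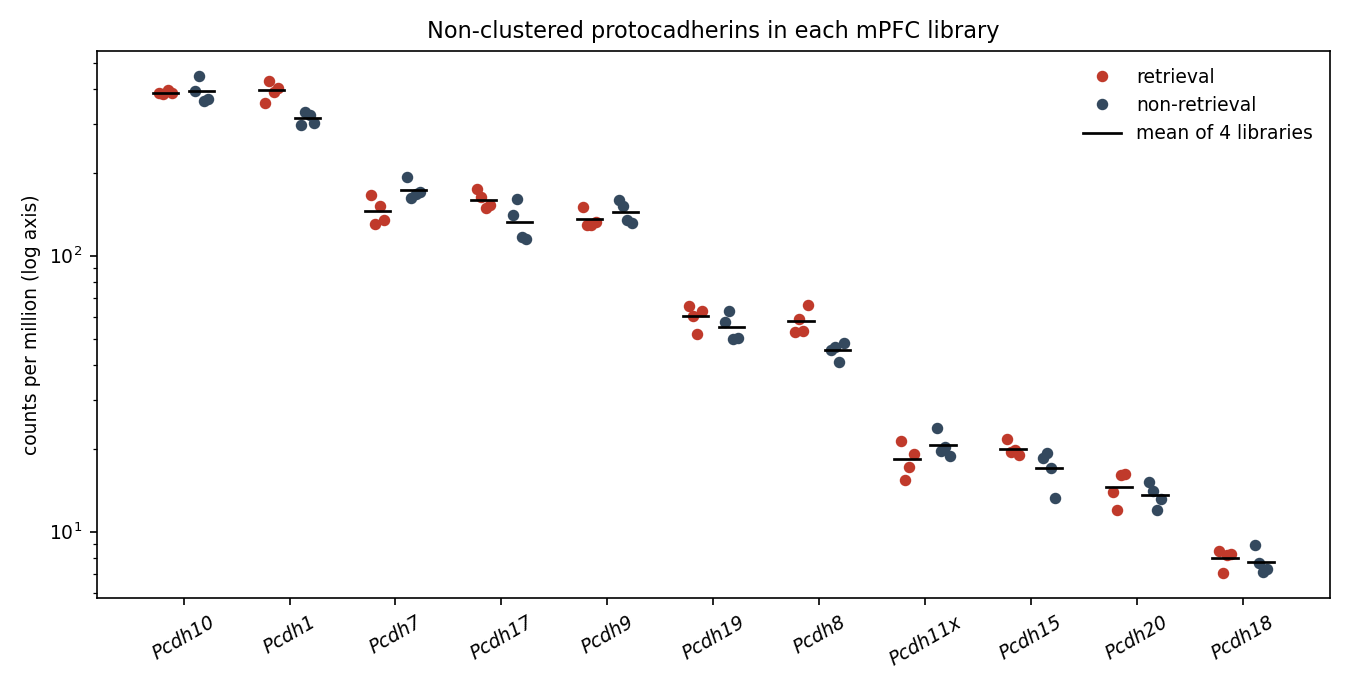
CPM of the 11 non-clustered protocadherins in each library on a log axis, retrieval left of non-retrieval, with group means. Pcdh1 (359 to 431 against 298 to 333 CPM) and Pcdh8 (52.9 to 66.1 against 41.1 to 48.1 CPM) are the genes whose groups do not overlap.

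The clustered genes lie on the plus strand of chromosome 18 in the order alpha (36930184 to 37187661), beta (37294812 to 37524479) and gamma (37661793 to 37841873). Exon sharing bears on their levels. Pcdhac2 shares 2860 exon bases with another alpha gene and Pcdhga2 shares 2116 with another gamma gene. Pcdhga10, which has 0 exon bases of its own in the annotation used here, held only 2 to 13 reads. Reads from shared exons were therefore not counted for each gene that contains them, and levels are given per kilobase of the gene's own exons. Each cluster had a lower median than the non-clustered genes, at 2.07 CPM per kb for alpha, 1.36 for beta and 4.09 for gamma, against 11.2. Single genes overlapped widely, from 0.349 to 31.8 CPM per kb in the clustered and 0.776 to 40.4 in the non-clustered genes.

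In the alpha cluster none of the 12 genes was called by edgeR, DESeq2 or limma-voom, and 3 had an unadjusted p under 0.05 in edgeR, all lower in retrieval. Log2 fold changes were negative in 9 and positive in 3, the highest at 0.0047, with a median of -0.07. They were positive in 0 with upper-quartile scaling factors and in 1 with the length and GC offset. Those 2 settings also lowered the median over all tested genes, from -0.0095 to -0.036 and -0.024. The summed level was 108, 105, 96.9 and 104 CPM in the retrieval libraries, against 109, 111, 110 and 110 CPM in the non-retrieval libraries. The groups did not overlap in that sum, by about 1 CPM, and means were 103 ± 4.79 CPM in retrieval and 110 ± 0.702 CPM in non-retrieval libraries (SD, n = 4 each), given as a description with no test.

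The C-type gene Pcdhac2 (ENSMUSG00000102697), the alpha isoform of serotonergic and many other neurons, took 47.0 ± 0.956% of the cluster's CPM in retrieval and 45.3 ± 2.07% in non-retrieval libraries (SD, n = 4 each). It had 51.6, 50.6, 44.7 and 48.0 CPM in retrieval, against 48.9, 53.4, 47.5 and 49.5 CPM in non-retrieval libraries (-0.03, SE 0.07, edgeR adjusted p = 0.844). At 16.3 CPM per kb of own exon it was the highest alpha gene, and at 8.37 CPM per kb of the deposited length it was still so. The other C-type gene, Pcdhac1 (ENSMUSG00000103255), had 3.77, 3.12, 3.26 and 3.51 CPM in retrieval, against 4.86, 3.98, 3.85 and 4.10 CPM in non-retrieval libraries. Its groups did not overlap, but the difference was not called (-0.30, SE 0.14, edgeR adjusted p = 0.266), and it was -0.17 with the myelin covariate.

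Pcdha8 (ENSMUSG00000103800), the lowest alpha gene at 0.349 CPM per kb, had 0.438, 0.887, 0.613 and 0.507 CPM in retrieval, against 0.986, 0.483, 0.855 and 2.15 CPM in non-retrieval libraries. Non-retrieval replicate 4 held 64 reads and the other 7 libraries 12 to 28. The log2 fold change was -0.89 (SE 0.39, edgeR adjusted p = 0.236), and without non-retrieval replicate 4 it was -0.35 (edgeR adjusted p = 0.699). Pcdha12, named after its values were seen, had 13.5, 8.66, 11.8 and 12.1 CPM in retrieval, against 14.6, 12.3, 13.3 and 15.1 CPM in non-retrieval libraries (-0.26, SE 0.12, edgeR adjusted p = 0.250). The 95% interval lay within 0.5 of 0 for 7 of the 12 alpha genes and within 1 for 11, all but Pcdha8.

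In the beta cluster none of the 21 genes was called by edgeR, DESeq2 or limma-voom, and none had an unadjusted p under 0.05. Log2 fold changes were positive in 11 and negative in 10, with a median of 0.01 and a range of -0.19 to 0.23, and the median was -0.02 with upper-quartile factors and -0.0048 with the length and GC offset. The summed level was 151 ± 3.84 CPM in retrieval and 150 ± 5.04 CPM in non-retrieval libraries (SD, n = 4 each). Pcdhb17, named after its values were seen as the gene with most CPM, took 13.5 ± 1.63% of the beta CPM in retrieval and 12.5 ± 0.579% in non-retrieval libraries.

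Per kilobase, over all 8 libraries, Pcdhb9 was highest at 4.44 and Pcdhb6 lowest at 0.649 CPM per kb. Neither rank stood clear of its neighbour: in retrieval libraries Pcdhb17 was at 4.38 ± 0.584 and Pcdhb9 at 4.35 ± 0.384 CPM per kb, and Pcdhb6 and Pcdhb4 overlapped within their spread in both groups (SD, n = 4). Pcdhb9 (ENSMUSG00000051242) had 13.5, 14.8, 11.9 and 12.9 CPM in retrieval, against 14.4, 13.0, 13.4 and 14.7 CPM in non-retrieval libraries (-0.06, SE 0.09, edgeR adjusted p = 0.754). Pcdhb6 (ENSMUSG00000051678) had 2.19, 2.91, 1.95 and 2.28 CPM in retrieval, against 2.64, 3.02, 1.75 and 2.76 CPM in non-retrieval libraries (-0.12, SE 0.20, edgeR adjusted p = 0.801). The groups overlapped for both. The smallest p of the cluster belonged to Pcdhb10 (ENSMUSG00000045657), with 5.49, 3.80, 4.75 and 5.87 CPM in retrieval, against 3.80, 4.75, 3.88 and 4.81 CPM in non-retrieval libraries (0.21, SE 0.15, edgeR adjusted p = 0.501). The 95% interval lay within 0.5 of 0 for 16 of the 21 beta genes and within 1 for all 21.

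In the gamma cluster none of the 20 genes was called by edgeR, DESeq2 or limma-voom, and 1, Pcdhgc4, had an unadjusted p under 0.05 in edgeR. Log2 fold changes were positive in 9 and negative in 11, with a median of -0.02, and positive in 7 with upper-quartile factors and in 6 with the length and GC offset. The summed level was 354 ± 19.4 CPM in retrieval and 346 ± 17.5 CPM in non-retrieval libraries (SD, n = 4 each). By subfamily, 3 of 11 gamma A genes, 3 of 6 gamma B genes and 3 of 3 gamma C genes had a positive log2 fold change, with medians of -0.05, -0.01 and 0.11, and the difference between subfamilies was not tested. Of the gamma C genes, Pcdhgc5 was at -0.018 with the length and GC offset.

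The C-type genes Pcdhgc3, Pcdhgc4 and Pcdhgc5 together took 55.7 ± 1.41% of the gamma CPM in retrieval and 53.6 ± 0.742% in non-retrieval libraries (SD, n = 4 each), with overlapping ranges of 53.8 to 57.0% in retrieval and 52.9 to 54.6% in non-retrieval libraries. Pcdhgc5 (ENSMUSG00000102543), a gamma isoform that binds the GABA-A receptor gamma subunit in rat neurons, had 136, 162, 149 and 153 CPM in retrieval, against 140, 150, 132 and 149 CPM in non-retrieval libraries (0.07, SE 0.07, edgeR adjusted p = 0.608). Pcdhgc5 was the highest clustered gene, at 31.8 CPM per kb of own exon and 19.2 per kb of the deposited length. Pcdhgc3 (ENSMUSG00000102918), which promotes dendrite branching in mouse cortical neurons, had 24.2, 32.1, 31.4 and 30.7 CPM in retrieval, against 28.0, 29.2, 25.3 and 27.1 CPM in non-retrieval libraries (0.11, SE 0.09, edgeR adjusted p = 0.553). Its level depended on the length used, at 15.6 CPM per kb of own exon and 5.18 per kb of the deposited length.

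Pcdhgc4 (ENSMUSG00000023036), the gamma isoform needed for neuronal survival in mice, had 18.6, 17.3, 16.2 and 18.7 CPM in retrieval, against 15.0, 16.7, 14.8 and 15.1 CPM in non-retrieval libraries. Retrieval replicate 3 lay below non-retrieval replicate 2, and the remaining retrieval libraries exceeded each library of the non-retrieval group. The difference was not called (0.21, SE 0.08, 95% interval 0.03 to 0.38, edgeR adjusted p = 0.193), and it was 0.13 with the myelin covariate. Pcdhgb5 (ENSMUSG00000103749), lowest of the cluster at 0.884 CPM per kb, had 3.74, 3.76, 3.98 and 4.45 CPM in retrieval, against 4.58, 4.10, 3.39 and 4.64 CPM in non-retrieval libraries (-0.07, SE 0.14, edgeR adjusted p = 0.836). The 95% interval lay within 0.5 of 0 for 19 of the 20 gamma genes and within 1 for all 20.

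**Figure D4:**
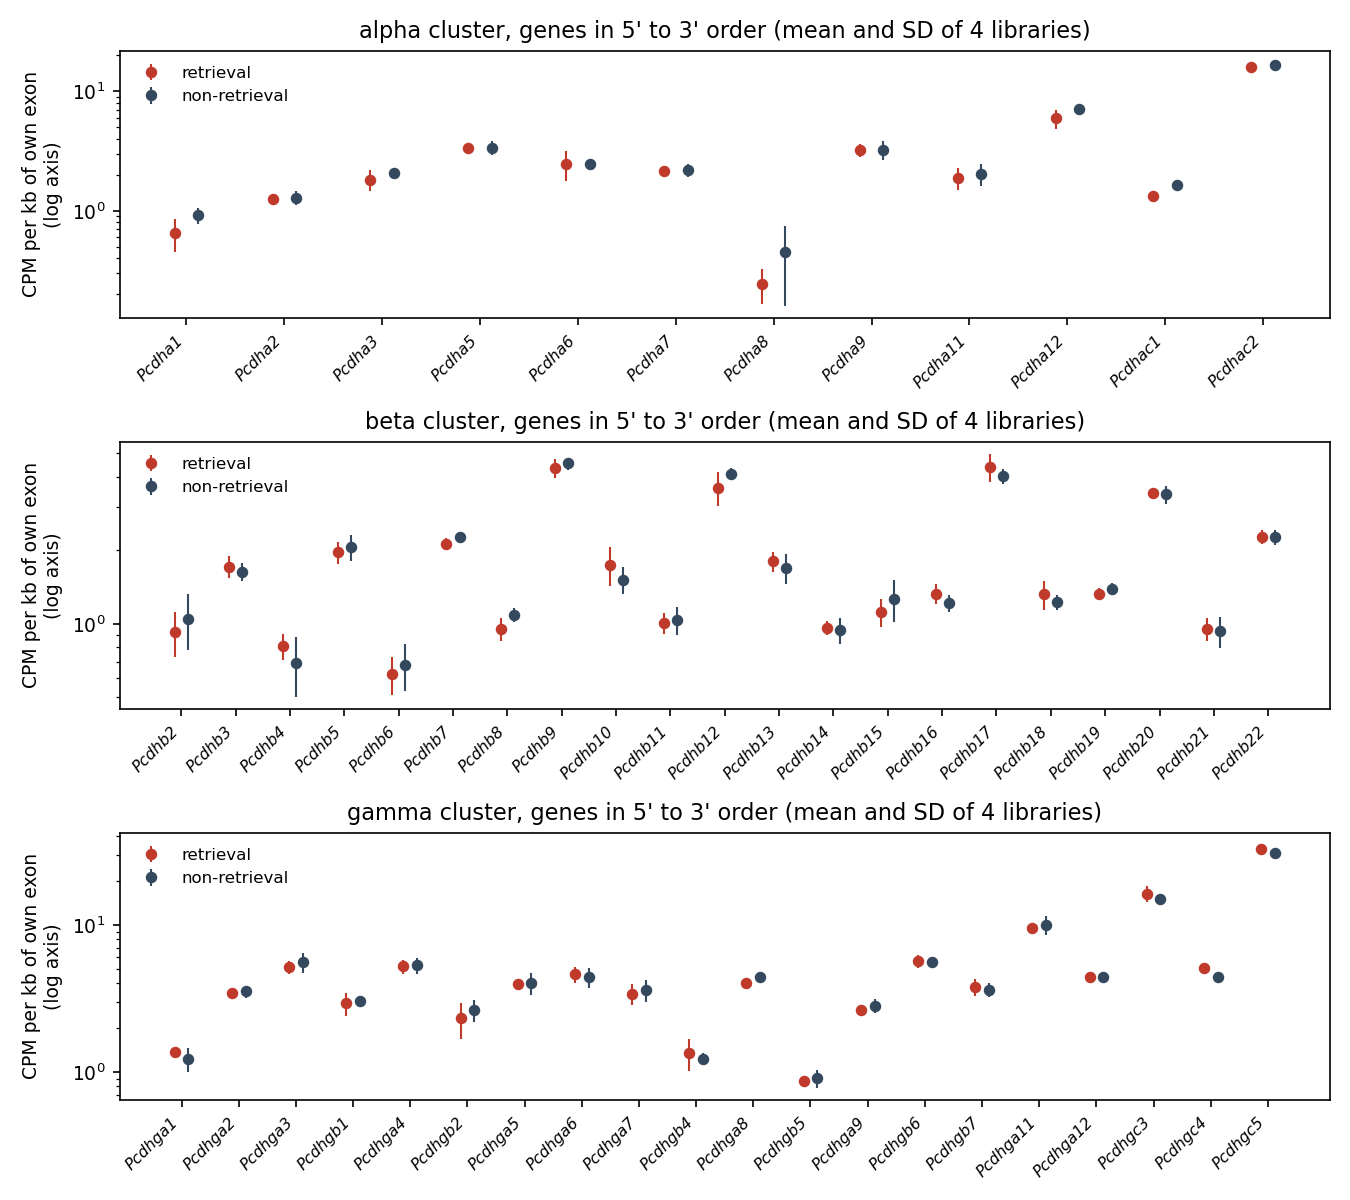
Mean and SD (n = 4) of CPM per kb of own exon of the clustered genes in their order on chromosome 18, on a log axis, for retrieval and non-retrieval libraries. The C-type genes Pcdhac2 (16.3 CPM per kb), Pcdhgc3 (15.6) and Pcdhgc5 (31.8) stand above the other clustered genes in both groups. The C-type genes Pcdhac1 (1.49) and Pcdhgc4 (4.76) do not, and by this measure lie below the gamma A gene Pcdhga11 (9.71). Per kb of the deposited length, Pcdhgc4 was at 2.96 and Pcdhga11 at 2.56, so their order depended on the length used.

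Clustered and non-clustered genes differed in how precisely they were measured. The median SE of the log2 fold change was 0.14 for alpha, 0.12 for beta, 0.11 for gamma and 0.09 for the non-clustered genes, beside 0.10 over all tested genes. The median CPM was 4.75 for alpha, 6.42 for beta, 9.18 for gamma and 57.7 for the non-clustered genes. Median GC content was 47.4% for alpha, 45.6% for beta, 53.0% for gamma and 45.5% for the non-clustered genes. A difference as small as that of Pcdh1 or Pcdh8 was thus less detectable in most clustered genes at this depth.

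Genes that act with the protocadherins were read out as fixed lists. Over all tested genes, edgeR called 766 (4.57%), DESeq2 1050 and limma-voom 1619. Of 20 genes of clustered promoter choice, which hold CTCF, cohesin and DNA methylation genes, edgeR called 1 (5%), near the share over all tested genes. The log2 fold change was positive in 17 (median 0.08), beside 13 with the length and GC offset (median 0.03). The called gene was Dnmt3a, a de novo DNA methyltransferase. Its level was 96.9 ± 3.34 CPM in retrieval and 80.6 ± 6.77 CPM in non-retrieval libraries (SD, n = 4 each). It rose by a log2 fold change of 0.27 (SE 0.07, edgeR adjusted p = 0.0337). That call ended under 6 other ways of processing, among them the length and GC offset (0.10, edgeR adjusted p = 0.217), and without any of 5 single libraries, namely retrieval replicates 2, 3 and 4 and non-retrieval replicates 3 and 4 (edgeR adjusted p between 0.0671 and 0.129). Ctcf itself, the insulator protein that loops promoters to their enhancers, was at 63.7 ± 4.58 CPM in retrieval and 63.3 ± 1.18 CPM in non-retrieval libraries (SD, n = 4 each; edgeR adjusted p = 0.962).

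Of 17 genes of the WAVE complex and of kinases downstream of protocadherins, edgeR called 0, with 2 at an unadjusted p under 0.05, DESeq2 called 0 and limma-voom 1. Of 9 genes of protocadherin shedding by ADAM proteases and gamma-secretase, edgeR called 0, with 1 at an unadjusted p under 0.05, and DESeq2 and limma-voom called 1 each. Median log2 fold changes were -0.02 in both lists.

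Beside 4.57% of all tested genes, 1 of 21 tested classical cadherins and catenins (4.76%) was called. This was Cdh13, the membrane-anchored T-cadherin, with 103 ± 4.39 CPM in retrieval and 82.6 ± 6.81 CPM in non-retrieval libraries (SD, n = 4 each), and it rose by 0.32 (SE 0.07, edgeR adjusted p = 0.0129), a call lost once non-retrieval replicate 3 was left out (edgeR adjusted p = 0.0594). Of 14 tested Fat, Dachsous, Celsr and other atypical cadherin genes, 4 were called (28.6%), all higher in retrieval, beside 3.67% of all tested genes called higher. The median log2 fold change of this list was 0.19, or 0.09 with the length and GC offset. Fat1, a giant atypical cadherin, had 64.6 ± 6.99 CPM in retrieval and 47.5 ± 4.24 CPM in non-retrieval libraries (SD, n = 4 each; 0.45, SE 0.08, edgeR adjusted p = 0.00598), and its call held with each library left out. Dchs1, a Fat4 ligand, rose by 0.46 (edgeR adjusted p = 0.0162), Celsr1, a planar polarity cadherin, by 0.52 (edgeR adjusted p = 0.0324), and Fat4 by 0.34 (edgeR adjusted p = 0.0414). Those calls ended without certain single libraries: 2 for Dchs1 (non-retrieval replicates 3 and 4), 5 for Celsr1 (retrieval replicates 2 and 4, non-retrieval replicates 1, 3 and 4) and 5 for Fat4 (retrieval replicates 3 and 4, non-retrieval replicates 2, 3 and 4). The Fat4 call also ended with upper-quartile factors (0.32, edgeR adjusted p = 0.0639) and with the length and GC offset (0.18, edgeR adjusted p = 0.185), and that of Celsr1 with the striatal marker mean as a covariate (0.42, edgeR adjusted p = 0.0840). With retrieval replicates 2 and 4 left out, none of the 6 called list genes was called (edgeR adjusted p between 0.0609 and 0.365). With the myelin marker mean as a covariate edgeR called none of Dnmt3a, Cdh13, Fat1, Dchs1, Celsr1 and Fat4. Adjusted p in edgeR lay between 0.273 and 0.914. Over all tested genes, that covariate cut the calls from 766 to 150. The part of the myelin markers was not tested.

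Markers of other cell types were read out in the same fit, in which 4.57% of all tested genes were called. In edgeR, 0 of 12 astrocyte markers, 0 of 10 endothelial markers and 0 of 10 microglial markers were called, with 2, 1 and 1 at an unadjusted p under 0.05. DESeq2 called 0 in each of these lists, and limma-voom called 2, 1 and 0. Of 7 tested meningeal and choroid plexus markers, 1 was called, Col1a2, higher in retrieval. Of 13 tested striatal markers, 10 had a positive log2 fold change and 3 a negative one, with a median of 0.27. Of 6 with an unadjusted p under 0.05 in edgeR, 5 were higher in retrieval, and the 1 marker called, Scn4b, was lower in retrieval. Drd2, the dopamine D2 receptor, reached 7.45 CPM in the second retrieval library, while all 7 others held 1.21 to 2.18 CPM.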

How the data were processed

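Per the submitters' processing notes, reads were aligned with HISAT2 2.0.5 to GRCm38 and counted per gene with featureCounts 1.5.0-p3. Libraries came from RNeasy Micro RNA and the NEBNext Ultra RNA kit, per the labels' protocols. The deposited table holds the authors' raw counts for 8 libraries, 4 per group. For the annotation release, the strand setting and reads over several genes, nothing is stated in the sources used here. Labels call the pools biological samples, each of 2 to 3 mice.

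Counts were fitted with edgeR 4.0.16 in R 4.3.3: TMM factors, the default filterByExpr filter (16745 genes), quasi-likelihood F test, no covariate, Benjamini-Hochberg adjustment over all tested genes, threshold 0.05. The code was tested on simulated data. Exon lengths and GC content came from GENCODE M21 (GRCm38), whose exon length equalled the deposited length for all 64 members and 95.4% of tested genes. Own exons are bases in no exon of another gene. Log2 CPM used a prior count of 2. Alternatives were other scaling factors and filters, DESeq2 1.42.0, limma 3.58.1 (voom with quality weights), a replicate block, a loess length and GC offset, marker covariates and each library left out. Intervals cover the spread between these 8 pools only. Members and lists were chosen with earlier results of these data known. Named were every non-clustered member and, per cluster, every called member, the C-type genes, the highest and lowest per kilobase and the smallest p. From every other list the called genes with the smallest p were named, up to 4. Ctcf, Slc17a7 and Drd2 were named outside that rule, after their values were seen.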

Additional observations from a re-analysis of the deposited data

Results flagged for a closer look

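Among 50 groups of 4 libraries examined, 2 held a library far from the other 3, and chance gives about 1 in 20. Pcdh9 in retrieval replicate 1 was at 151 CPM, while the other retrieval libraries were at 129 to 132 CPM. Pcdhgc4 in non-retrieval replicate 2 was at 16.7 CPM, while the other non-retrieval libraries were at 14.8 to 15.1 CPM.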

How the results depend on the processing

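Of 420 log2 fold changes of named members under other settings, 394 kept their direction and their side of the threshold, 6 lost their call, 10 gained one and 10 changed sign. The causes were not tested. The 2 members called became 4 without a filter on low counts (Pcdh7 and Pcdh17 added), 0 with the myelin covariate and 0 with retrieval replicates 2 and 4 left out, and 1 to 3 with each library left out. The 766 genes called in all became 1619 under limma-voom, 1414 with the length and GC offset, 150 with the myelin covariate, 382 with retrieval replicates 2 and 4 left out, and 330 to 1360 with each library left out. The median log2 fold change of the alpha genes was -0.17 with the myelin covariate, -0.15 without retrieval replicates 2 and 4, and -0.16 to -0.031 with each library left out. That of the beta genes was 0.054 without retrieval replicates 2 and 4 and -0.035 to 0.032 with each library left out. Changes of sign were all in members that were not called. They were Pcdh10 without non-retrieval replicate 2 (-0.055 to 0.050 over the libraries left out), Pcdhac2 without retrieval replicate 3 or non-retrieval replicate 2 (-0.055 to 0.0098), Pcdhgb5 under limma-voom (0.021), Pcdh19 (-0.00012), Pcdhgc3 (-0.030) and Pcdhgc5 (-0.049) with the myelin covariate, and Pcdhgc5 with the length and GC offset (-0.018), with that offset and the block (-0.017) and without retrieval replicates 2 and 4 (-0.0013).

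The labels name no pairing of the libraries by replicate number, and the main fit used none. The correlation of same-numbered deviations was 0.221, 0.0850, 0.0268 and 0.0996. Each library correlated best with its own number, a hint of pairing from the data and not from the design. With the replicate block, 4 members were called (Pcdh7 and Pcdh17 added) and 1791 genes in all, and with the block and the length and GC offset 5 members (Pcdha12 added too) and 1969 genes. Clustered genes of low count limit what could be seen, since Pcdha8 had 12 reads in its lowest library.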
